A study of Mus musculus with 14 samples.

Results

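Aquaporins are channel proteins that let water cross cell membranes, and one branch of the family, the aquaglyceroporins, also passes glycerol and other small uncharged solutes. Each family member is known for particular cells: AQP3 for the membranes of keratinocytes, AQP1 for capillary endothelium and red blood cells, AQP4 for fast skeletal muscle fibers and astrocytes, AQP5 for secretory gland cells, AQP7 for adipocytes, AQP9 for hepatocytes and leukocytes, and AQP11 for intracellular membranes. The mouse esophagus joins several of these cells in a thin wall, since a stratified squamous epithelium lies on connective tissue that carries vessels and on a muscle coat of striated fibers.

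The genes Aqp1, Aqp3, Aqp4, Aqp5, Aqp7, Aqp9 and Aqp11 were followed through bulk RNA-Seq of mouse esophagus. They were picked by exact match of the gene symbol in the count tables, where all 7 were found among 55291 listed genes. The libraries came from 9 wild type C57BL/6 mice, which carried no transgene and received no treatment that the sources name. Peeled epithelium was sequenced from 5 aged mice (O1, O2, O3, OF5 and OM8) and 4 young mice (Y1, Y3, YF5 and YM4), and stroma from 5 of the same mice (aged O1, O2 and O3, young Y1 and Y3). By the study's methods, the muscle layer was taken off with forceps to leave an epithelium-enriched mucosa, and how the stroma was collected is not given in the sources used here. By the labels, aged mice had reached at least 18 months and young mice at most 4 months. A layer separated by hand is a mixture of cell types, so that fewer cells of a type and less RNA per cell cannot be told apart in any of the values below.

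Total counts ran from 8217516 to 21867101 per library. Protein-coding counts ran from 6665526 to 11067320 in the 10 libraries of the 5 mice with both layers, but only from 1042394 to 1433857 in the 4 mice with epithelium only (OF5, OM8, YF5 and YM4), in which 63.9% to 73.9% of all counts fell on 1 ribosomal RNA gene. The share of this gene also differed between layers, with 10.4% to 23.3% in epithelium of the other 5 mice and 1.47% to 1.88% in stroma. Values are given as normalized counts, that is, CPM on the library size after TMM scaling. On this scale 3 counts correspond to 0.0872 to 0.175 in the 10 libraries of mice with both layers. In the 4 mice with epithelium only they correspond to 0.707 to 1.25, so that weakly expressed genes are poorly measured there. The layers carried their own markers: all 7 basal keratinocyte genes and all 7 differentiated keratinocyte genes were higher in epithelium, and all 8 skeletal muscle genes were lower. The summed level of the muscle genes still reached 14.1 to 1521 normalized counts in epithelium, against 36040.1 to 66108 in stroma.

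Promoter windows from RefSeq (GRCm38.p6, 250 bases before to 50 after the start site) are shown for Aqp3 and Aqp7, because these neighbors lay on opposite sides of the layer comparison, and for Aqp1, which had the highest mean of the genes in stroma. They are chr4:41098134-41098433 on the minus strand for Aqp3, chr4:41048087-41048386 on the minus strand for Aqp7 and chr6:55336049-55336348 on the plus strand for Aqp1. Capitals mark matches on either strand to TATAAA (the TATA box), CCAAT (the CCAAT box), GGGCGG (the GC box), TGANTCA (AP-1), CTA and TAG with any 4 bases between them (MEF2) and AGGTCA (the nuclear receptor half-site).
Aqp3: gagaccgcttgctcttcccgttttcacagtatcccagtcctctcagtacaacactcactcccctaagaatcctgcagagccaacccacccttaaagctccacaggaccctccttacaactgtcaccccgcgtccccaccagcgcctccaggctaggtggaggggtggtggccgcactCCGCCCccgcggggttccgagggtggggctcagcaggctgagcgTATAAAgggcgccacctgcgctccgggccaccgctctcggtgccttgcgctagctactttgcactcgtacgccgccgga
Aqp7: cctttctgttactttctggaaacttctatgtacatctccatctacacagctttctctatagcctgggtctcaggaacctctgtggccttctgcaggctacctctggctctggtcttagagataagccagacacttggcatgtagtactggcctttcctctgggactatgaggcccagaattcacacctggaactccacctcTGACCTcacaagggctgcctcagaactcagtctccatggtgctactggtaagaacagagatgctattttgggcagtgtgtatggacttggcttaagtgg
Aqp1: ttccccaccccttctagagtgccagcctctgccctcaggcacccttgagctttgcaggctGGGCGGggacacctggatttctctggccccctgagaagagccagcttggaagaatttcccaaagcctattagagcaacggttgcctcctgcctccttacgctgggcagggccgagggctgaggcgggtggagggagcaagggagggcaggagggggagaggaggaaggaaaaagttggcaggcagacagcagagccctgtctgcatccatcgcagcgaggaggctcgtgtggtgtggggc

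The Aqp3 window held a TATA box at position -29 from the start site and a GC box at position -73. It contained 21 CpG dinucleotides and was 64% G and C. The Aqp7 window held no CpG at all, was 49.7% G and C, and had 1 match, a nuclear receptor half-site at position -49. The Aqp1 window held 8 CpG and a GC box at position -190. Among all 32851 windows of 300 bases in the table, the median was 7 CpG and 52.7% G and C, and TATAAA occurred in 13.6%, GGGCGG in 35.7% and AGGTCA in 16.3%. The other motifs, which none of the 3 windows shown held, occurred in 37.4% (CCAAT), 7.81% (TGANTCA) and 3.69% (the MEF2 letters). None of the searched motifs overlapped another within these windows. A match is a description of the letters only.

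In GRCm38 (GENCODE M21), all 7 are protein-coding genes. Aqp3 (ENSMUSG00000028435.8, chromosome 4, 41092722 to 41098183) and Aqp7 (ENSMUSG00000028427.13, chromosome 4, 41033074 to 41048139) lie on the minus strand 44.6 kb apart, with only the small nuclear RNA gene Gm25637 annotated between them. Aqp1 (ENSMUSG00000004655.5) lies on chromosome 6 from 55336432 to 55348555, Aqp4 (ENSMUSG00000024411.10) on chromosome 18 from 15389496 to 15410982, Aqp5 (ENSMUSG00000044217.17) on chromosome 15 from 99590782 to 99594829, Aqp9 (ENSMUSG00000032204.13) on chromosome 9 from 71110659 to 71168682 and Aqp11 (ENSMUSG00000042797.9) on chromosome 7 from 97724006 to 97738289. Antisense genes run across Aqp4 and Aqp9 without sharing exon bases, and the use of strand in counting is not given in the sources used here. Of the distinct 50-base runs in the exons, 3.87% of those of Aqp7, 0.233% of those of Aqp11 and 0.169% of those of Aqp3 also occur in other genes, none of them another of the 7, and no run of the other 4 genes does.

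The first question was which of the channels belong to which layer of the wall. Of the 7 genes, 5 passed the filter on low counts in this comparison, and Aqp5 and Aqp7 did not. Among these 5, 3 were called by edgeR (adjusted p under 0.05), with Aqp3 higher in epithelium and Aqp1 and Aqp4 lower, while Aqp9 and Aqp11 were not called. The background was high: 56.2% of 16791 genes were called, 26.1% higher in epithelium and 30.1% lower, and 60.8% had an unadjusted p under 0.05, so the share of these genes called was near that of all genes. Libraries of the layers did not overlap for Aqp3 and Aqp4, against 31.3% of all genes.

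**Figure D1:**
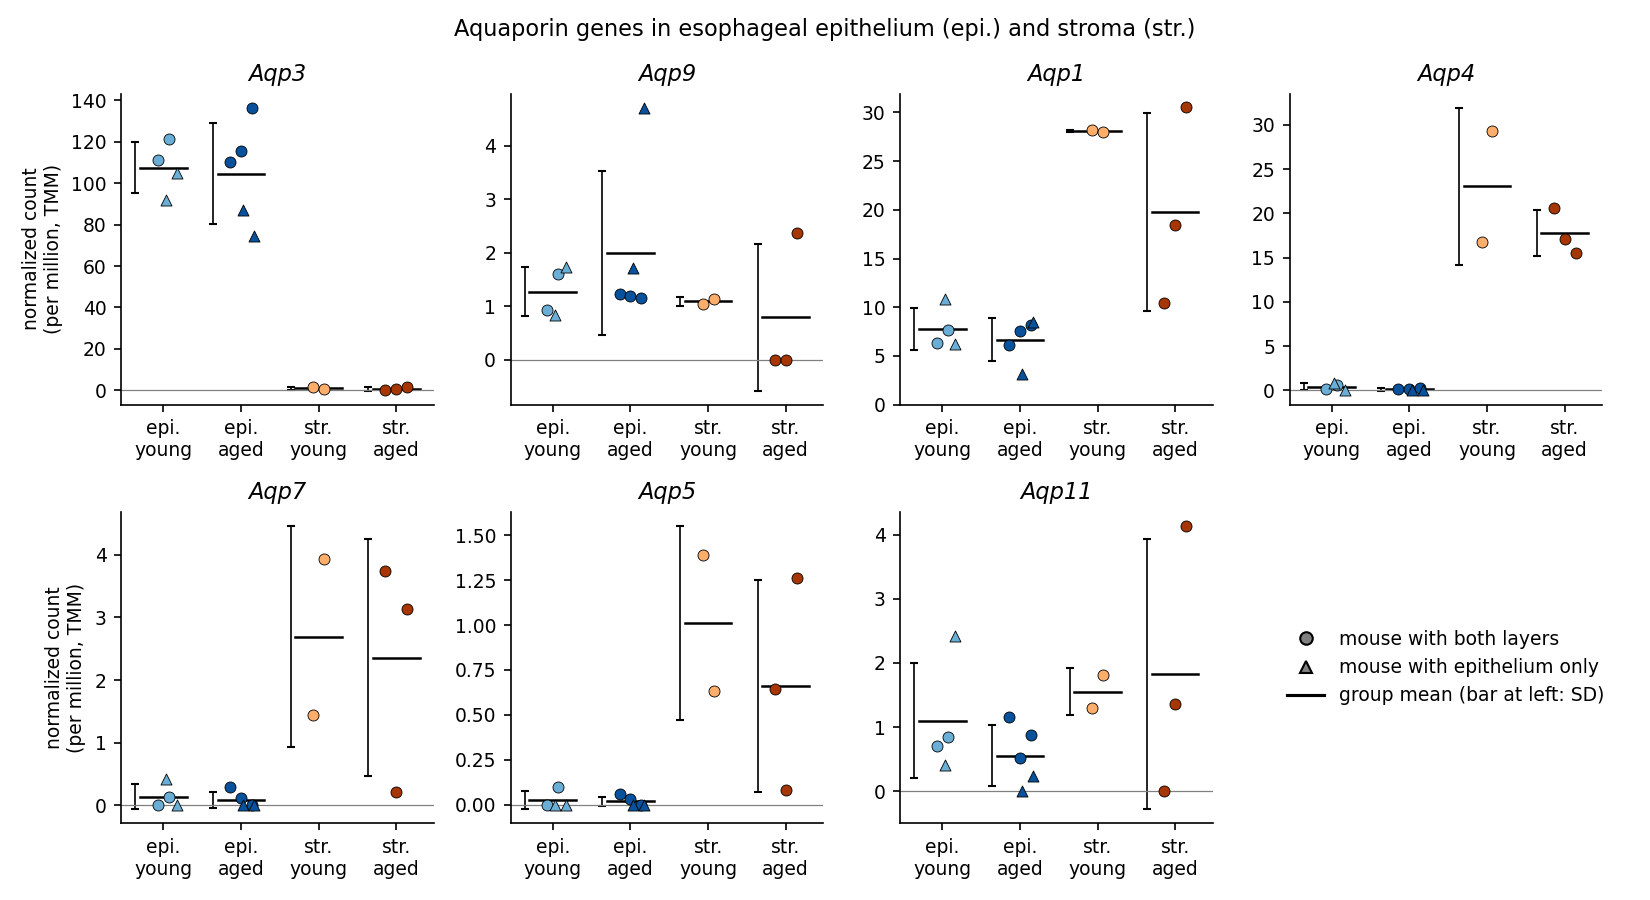
Normalized counts (y axis, CPM after TMM, linear and separately scaled) of the 7 aquaporin genes in young and aged epithelium and stroma (x axis), with 1 point per library (circles for mice with both layers, triangles for mice with epithelium only), a line at the group mean and the SD at its left. Aqp3 points lie at 74.5 or above in epithelium and at 1.76 or below in stroma, Aqp4 shows the opposite order without overlap, and young and aged points overlap in each panel within epithelium.

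Aqp3, which carries water and glycerol into keratinocytes, was the channel gene of the epithelium. Its normalized count ranged from 74.5 (OM8) to 136 (O3) in the 9 epithelial libraries, with a median of 110.2. In stroma it was 0 in O1, 0.657 in O2, 1.76 in O3, 1.60 in Y1 and 0.591 in Y3. No stromal library came near an epithelial one, and the count of 0 in O1 stroma allows up to 0.175 normalized counts (3 counts, counting error only). Mean levels were 106 ± 18.9 (SD, n = 9) and 0.922 ± 0.740 (SD, n = 5), and Aqp3 was 113-fold higher in epithelium (log2 fold change 6.81, SE 0.51, edgeR adjusted p = 3.68e-09). Groups without overlap in this direction were found for 14.4% of genes.

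Within epithelium, Aqp3 levels divided by kind of mouse. They were 110.2, 115, 136, 111 and 121 in O1, O2, O3, Y1 and Y3, and 86.8, 74.5, 92.1 and 105 in OF5, OM8, YF5 and YM4. The libraries of the 4 mice with epithelium only were all below those of the other 5. Basal keratinocyte genes also differed between these mice, with summed levels of 898 to 1533 in the 4 mice and 1817 to 2593 in the other 5. For differentiated keratinocyte genes the sums were 18580 to 29570 and 43463 to 55862. Set against these genes the order of the mice turned round. Aqp3 came to 6.84% to 9.67% of basal counts in the 4 mice and 4.35% to 6.69% in the other 5. Against differentiated counts it came to 0.329% to 0.421% and 0.199% to 0.279%. The part of depth and of cell makeup in the Aqp3 difference was not tested. Relative to the summed counts of the 7 basal keratinocyte genes, Aqp3 counts came to 4.35% to 9.67% in the 9 epithelial libraries and to 0% to 3.25% in the 5 stromal libraries, without overlap. Relative to the 7 differentiated keratinocyte genes the order was not the same: Aqp3 came to 0.199% to 0.421% in epithelium and 0% to 2.18% in stroma, where O3 (0.822%), Y1 (2.18%) and Y3 (1.42%) exceeded every epithelial library and O1 and O2 lay below them all.

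Aqp9, an aquaglyceroporin of liver and leukocytes, was the other channel with a higher mean in epithelium, but the layers overlapped. Its normalized count ranged from 0.833 (YF5) to 4.71 (OM8) in epithelium, with a median of 1.22. In stroma it was 0 in O1 and O2, 2.37 in O3, 1.03 in Y1 and 1.14 in Y3. The stroma of O3 thus exceeded 8 of the 9 epithelial libraries, and the difference did not pass the test (log2 fold change 0.83, SE 0.79, 95% interval -0.83 to 2.48, edgeR adjusted p = 0.39). Of 8 neutrophil and macrophage genes, 6 were tested, of which Cxcr2, a neutrophil chemokine receptor, was higher in epithelium and Adgre1, Csf1r and C1qa, genes of macrophages, were lower. Their summed level was 15.2 to 37.9 in epithelium and 26.8 to 78.6 in stroma, and the part of leukocytes in the Aqp9 values was not tested.

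Aqp1, the water channel of capillary endothelium and red blood cells, was lower in epithelium but present in every library. In epithelium it ranged from 3.10 (OF5) to 10.8 (YF5) normalized counts, with a median of 7.54. In stroma it was 10.4 in O1, 18.4 in O2, 30.6 in O3, 28.2 in Y1 and 28.01 in Y3. Only the stroma of O1 fell inside the epithelial range, where YF5, read from 26 counts, lay above it. The means were 7.16 ± 2.11 (SD, n = 9) and 23.1 ± 8.505 (SD, n = 5), and the gene was 3.23-fold lower in epithelium (log2 fold change -1.69, SE 0.24, edgeR adjusted p = 5.83e-06).

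Endothelial genes moved in the same direction as Aqp1. Of 8 endothelial genes, 7 were called lower in epithelium, including Pecam1 (log2 fold change -1.67), Vwf (-1.47), Tek (-1.88) and Cdh5 (-1.83), and Emcn was not called. Their summed level was 21.8 to 34.7 normalized counts in epithelium and 43.7 to 144 in stroma, with the lowest stromal sum in O1, which also had the lowest stromal Aqp1. Set against this sum, Aqp1 counts came to 11.8% to 49.1% in epithelium and 21.2% to 35.4% in stroma, ranges that overlap. All 6 tested erythroid genes were lower in epithelium as well, with summed levels of 2.94 to 52.2 against 189 to 436. None of the endothelial or erythroid genes was at 0 in every epithelial library, and the part of these cells in the epithelial Aqp1 counts was not tested.

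Aqp4, which is anchored in the membrane of fast skeletal muscle fibers, was the gene most restricted to stroma among those tested. The 5 stromal libraries held 20.7 (O1), 17.1 (O2), 15.5 (O3), 16.8 (Y1) and 29.4 (Y3) normalized counts. In epithelium it was 0 in OF5, OM8 and YM4 and at most 0.833 (YF5), and the largest epithelial count was 20 reads (Y3). The layers did not overlap, as for 16.9% of genes in this direction. Means were 0.246 ± 0.301 (SD, n = 9) and 19.9 ± 5.62 (SD, n = 5), a 74.6-fold difference (log2 fold change -6.22, SE 0.40, edgeR adjusted p = 7.32e-11). Aqp4 passed the filter only through stroma, where it is higher, so this call adds no support beyond the values themselves. In a fit of 49574 genes without a filter, of which 28.3% were called, the log2 fold change was -6.03 (SE 0.35, edgeR adjusted p = 9e-63).

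Muscle transcripts were also present in epithelium. As a percentage of the summed counts of the 8 muscle genes, among them Ttn, Acta1, Myh1 and Tnnt3, Aqp4 made up 0.0292% to 0.0637% in stroma. In the 6 epithelial libraries with any Aqp4 count it made up 0.0321% to 0.119%. The 3 libraries without one (OF5, OM8 and YM4) held only 41, 295 and 176 muscle counts, too few for an Aqp4 count to be seen at the stromal ratio. The muscle genes differed by a median log2 fold change of -6.40, against -6.22 for Aqp4. Whether the epithelial Aqp4 counts come from adhering muscle was not tested further.

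**Figure D2:**
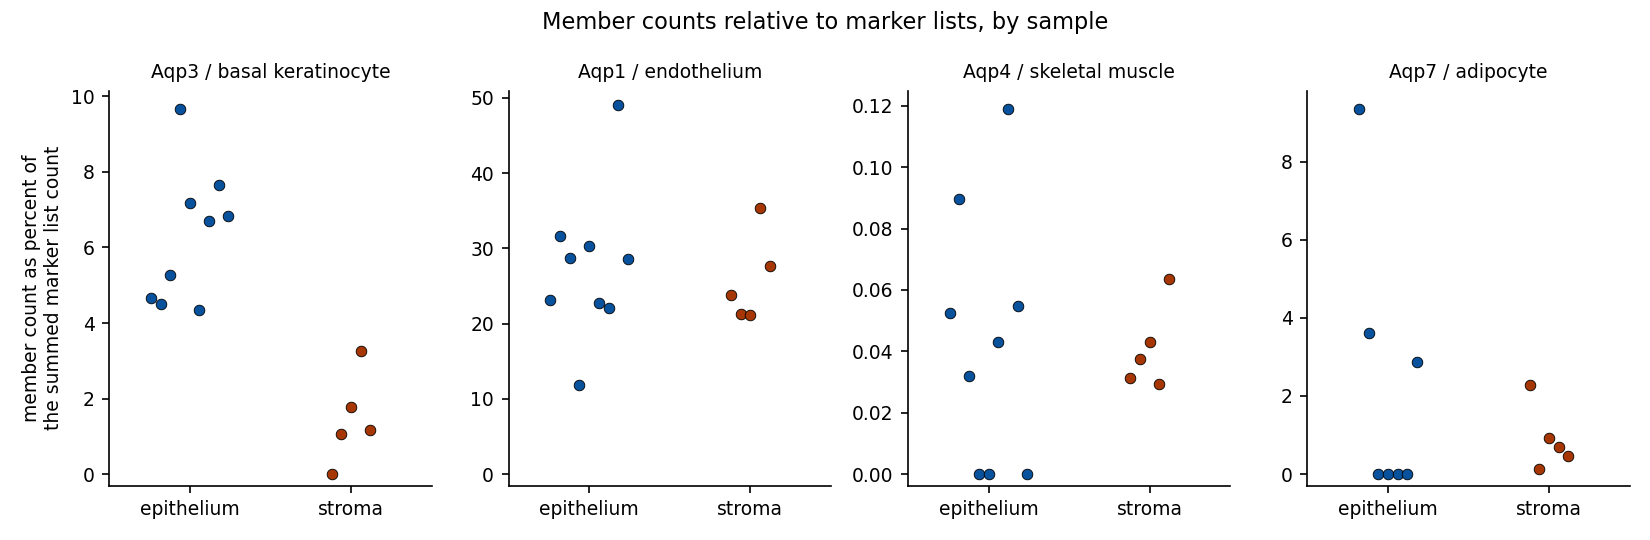
Counts of Aqp3, Aqp1, Aqp4 and Aqp7 as a percentage of the summed counts of a marker list (y axis, linear, separately scaled) in each epithelial and stromal library (x axis), with 1 point per library. Aqp3 stands at 4.35% to 9.67% of basal keratinocyte counts in epithelium and at 3.25% or less in stroma, a separation not seen against differentiated keratinocyte genes (not drawn), while Aqp1 to endothelium and Aqp4 to muscle overlap between layers, and 2 epithelial libraries without adipocyte counts are left out for Aqp7.

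The proteins that hold AQP4 at the muscle membrane belong to the dystrophin complex, a link from the cytoskeleton through the membrane to the extracellular matrix. Of 11 genes of this complex, 9 were called lower in epithelium, 1 higher and 1 not, and the median log2 fold change was -3.43 against -0.05 over all genes. Dmd, dystrophin itself, had epithelial and stromal means of 12.3 ± 3.68 (SD, n = 9) and 129 ± 32 normalized counts (SD, n = 5) (log2 fold change -3.43, SE 0.21, edgeR adjusted p = 2.7e-11). Sgca, a sarcoglycan of muscle, differed by -6.10, and Dtna, dystrobrevin alpha, by -3.73. Utrn and Dag1, utrophin and dystroglycan, which many cell types use, differed less (-0.64 and -1.31). Sntb1, another syntrophin, was the exception and was higher in epithelium (log2 fold change 1.44, SE 0.21, edgeR adjusted p = 8.41e-06).

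Aqp7, the glycerol channel of adipocytes, did not pass the filter in the layer comparison, and entered it once mouse O2, whose stroma held 5 counts, was left out. It had no count in 5 of the 9 epithelial libraries, and its highest epithelial value, 0.417 in YF5, was a single read. In stroma it was 3.73 in O1, 0.205 in O2, 3.14 in O3, 1.44 in Y1 and 3.94 in Y3. Only the stroma of O2 fell inside the epithelial range, below YF5 and also below O1 (0.291, from 10 counts). An exact permutation test over the 14 libraries (two-sided, on log2 of the normalized count plus 0.5) gave a difference of -2.07 and p = 0.003, also 0.003 after adjustment over the 2 genes tested this way. This test counts both layers of 5 mice as separate libraries. In those 5 mice alone the exact p was 0.0159 unpaired and 0.0625 paired, the latter being the smallest that 5 pairs allow. In a fit of 49574 genes without a filter, of which 28.3% were called and 17% were called lower in epithelium, Aqp7 was lower in epithelium (log2 fold change -4.27, SE 0.80, edgeR adjusted p = 1.15e-06).

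All 8 adipocyte genes were called lower in epithelium, with summed levels of 0 to 5.86 normalized counts in epithelium and 156 to 869 in stroma. Cfd, Fabp4, Cidec and Plin1 were the most abundant, and the levels differed widely between stromal libraries (163 in O1, 156 in O2, 343 in O3, 206 in Y1 and 869 in Y3). O2 was lowest and Y3 highest in both the adipocyte sum and Aqp7, but O1 combined an adipocyte sum close to that of O2 with the second highest Aqp7 value. As a percentage of the adipocyte sum, Aqp7 ranged from 0.131% (O2) to 2.29% (O1) in stroma, and the part of adipocyte content in its values was not tested.

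Aqp5, the water channel of serous gland cells, had the lowest epithelial level of the 7 per kilobase of exon. It had no count in 6 of the 9 epithelial libraries and at most 3 counts in the others. Stromal values were 0.642 in O1, 0.0822 in O2, 1.26 in O3, 1.39 in Y1 and 0.630 in Y3, from 2 to 33 counts. The stroma of O2 overlapped the epithelial library of Y3 (0.0981), and all other stromal libraries lay above every epithelial one. The exact permutation test over 14 libraries gave a difference of -1.21 on the same scale with p = 0.002 (0.003 after adjustment over the 2 genes), with 0.0159 unpaired and 0.0625 paired in the 5 mice with both layers, and the fit without a filter gave a log2 fold change of -4.23 (SE 1.18, edgeR adjusted p = 0.00234). Gland cell genes were scarce: 3 of 8 passed the filter, 2 of which (Muc19 and Lpo) were lower in epithelium. Their summed level was 0.346 to 2.91 in epithelium. In stroma it was 10.4 in O1, 2.75 in O2, 5.13 in O3, 9.55 in Y1 and 8.59 in Y3. O2 was thus lowest in both this sum and Aqp5, but the sum was highest in O1 and Aqp5 in Y1. In O3 a low sum stood beside the second highest Aqp5 value, and the part of gland cells in the Aqp5 values was not tested.

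Aqp11, which sits in intracellular membranes, had low values in both layers, with a mean of 0.798 normalized counts in epithelium and 1.72 in stroma. In epithelium it ranged from 0 (OF5) to 2.42 (YM4), with a median of 0.708. In stroma it was 0 in O1, 1.36 in O2, 4.13 in O3, 1.29 in Y1 and 1.81 in Y3. The groups overlapped at both ends, and the difference did not pass the test (log2 fold change -1.11, SE 0.71, 95% interval -2.59 to 0.38, edgeR adjusted p = 0.196). The call rested on mouse O1: without its 2 libraries Aqp11 was called lower in epithelium (log2 fold change -1.54, edgeR adjusted p = 0.0389).

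**Figure D3:**
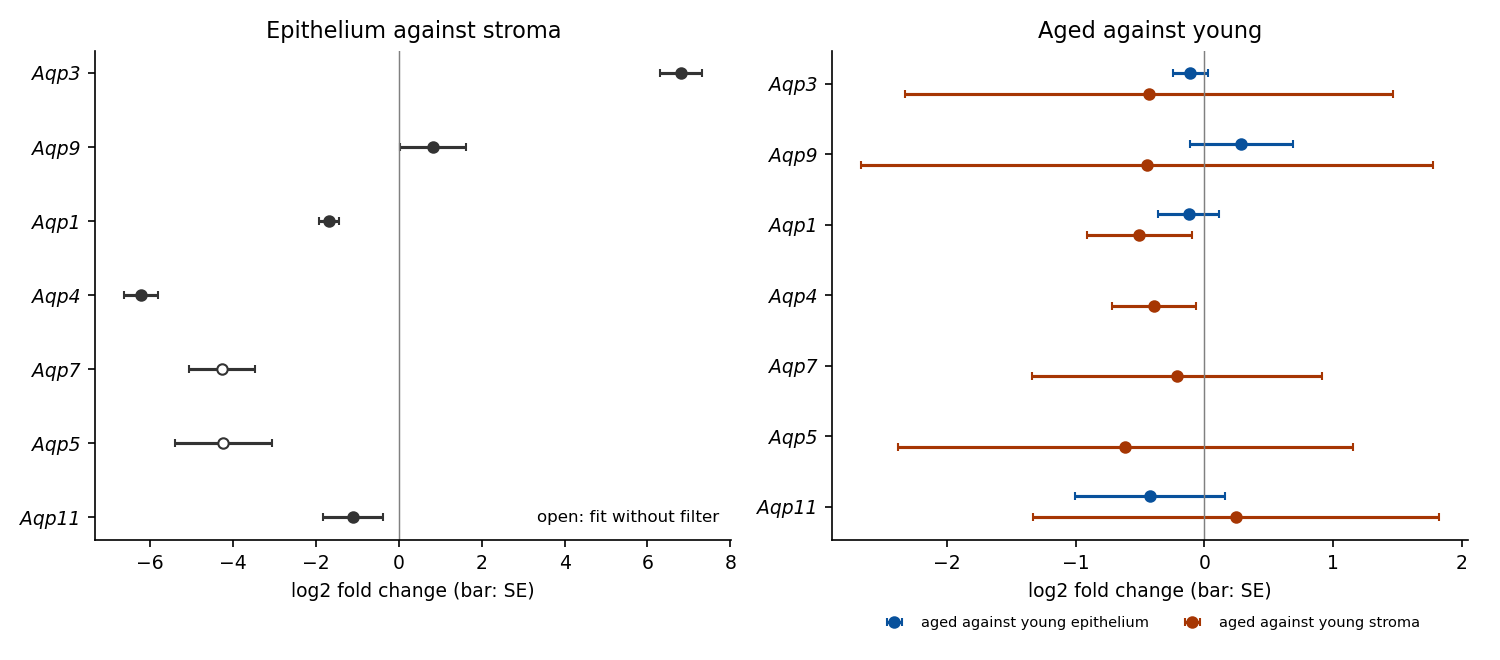
Log2 fold changes (x axis, bars are SE) of the 7 genes (y axis) between epithelium and stroma on the left and between aged and young mice in each layer on the right, with open points on the left for Aqp5 and Aqp7 from the fit without a filter and no point on the right for a gene outside the filter. Aqp3 stands at 6.81 and Aqp4 at -6.22 on the left, and on the right the stromal bars are wider than the epithelial ones for each gene tested in both layers.

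Within single mice the picture was the same. In the 5 mice with both layers, Aqp3 was higher in epithelium in 5 of 5, by 5.73 to 7.79 on the scale of log2 of the normalized count plus 0.5. Aqp4 was lower in 5 of 5 (differences of -4.97 to -4.34), as were Aqp1 (-2.08 to -0.71), Aqp7 (-2.86 to -0.18) and Aqp5 (-1.92 to -0.13). The smallest differences of Aqp7 and Aqp5 were both those of O2. Aqp9 was higher in epithelium in O1, O2 and Y3 and lower in O3 and Y1, and Aqp11 was lower in 4 of 5, all but O1.

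Values were also divided by the length of all annotated exons of a gene, and which transcripts were expressed was not assessed. Read per kilobase of exon, the 7 genes summed in epithelium to 61.2 ± 10.3 normalized counts per kilobase (SD, n = 9), against 14.1 ± 4.21 for the stroma (SD, n = 5). The makeup of the sum differed between layers. In epithelium Aqp3 supplied 94.4% ± 2.1 of it (SD, n = 9; 90.3% to 96.7%) and Aqp1 4.55% ± 1.67. In stroma Aqp1 supplied 61.2% ± 9.81 (SD, n = 5; 44.7% to 68.2%), Aqp4 24.4% ± 9.20, Aqp7 6.59% ± 5.40 and Aqp3 3.26% ± 2.39.

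The order of levels per kilobase in epithelium was Aqp3 (57.9 ± 10.3), Aqp1 (2.73 ± 0.805), Aqp9 (0.405 ± 0.286), Aqp11 (0.0847 ± 0.0748), Aqp4 (0.0395 ± 0.0484), Aqp7 (0.0377 ± 0.0542) and Aqp5 (0.00798 ± 0.0136). The steps from Aqp3 to Aqp1 and from Aqp1 to Aqp9 showed no overlap between libraries, while the ranges of the last 4 genes overlapped. In stroma the order was Aqp1 (8.80 ± 3.24), Aqp4 (3.19 ± 0.901), Aqp7 (0.881 ± 0.570), Aqp3 (0.504 ± 0.405), Aqp5 (0.309 ± 0.205), Aqp9 (0.219 ± 0.237) and Aqp11 (0.182 ± 0.160). Aqp1 exceeded Aqp4, and Aqp4 exceeded Aqp7, in each of the 5 stromal libraries, while the last 5 genes overlapped. The order of Aqp1 and Aqp4 depended on the division by exon length. Without it, Aqp4 exceeded Aqp1 in the stroma of O1 (20.7 against 10.4 normalized counts) and Y3 (29.4 against 28.01). Stromal libraries differed among themselves: that of O3 held the highest values of Aqp1, Aqp3, Aqp9 and Aqp11, and that of O1 had no count of Aqp3, Aqp9 or Aqp11.

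**Figure D4:**
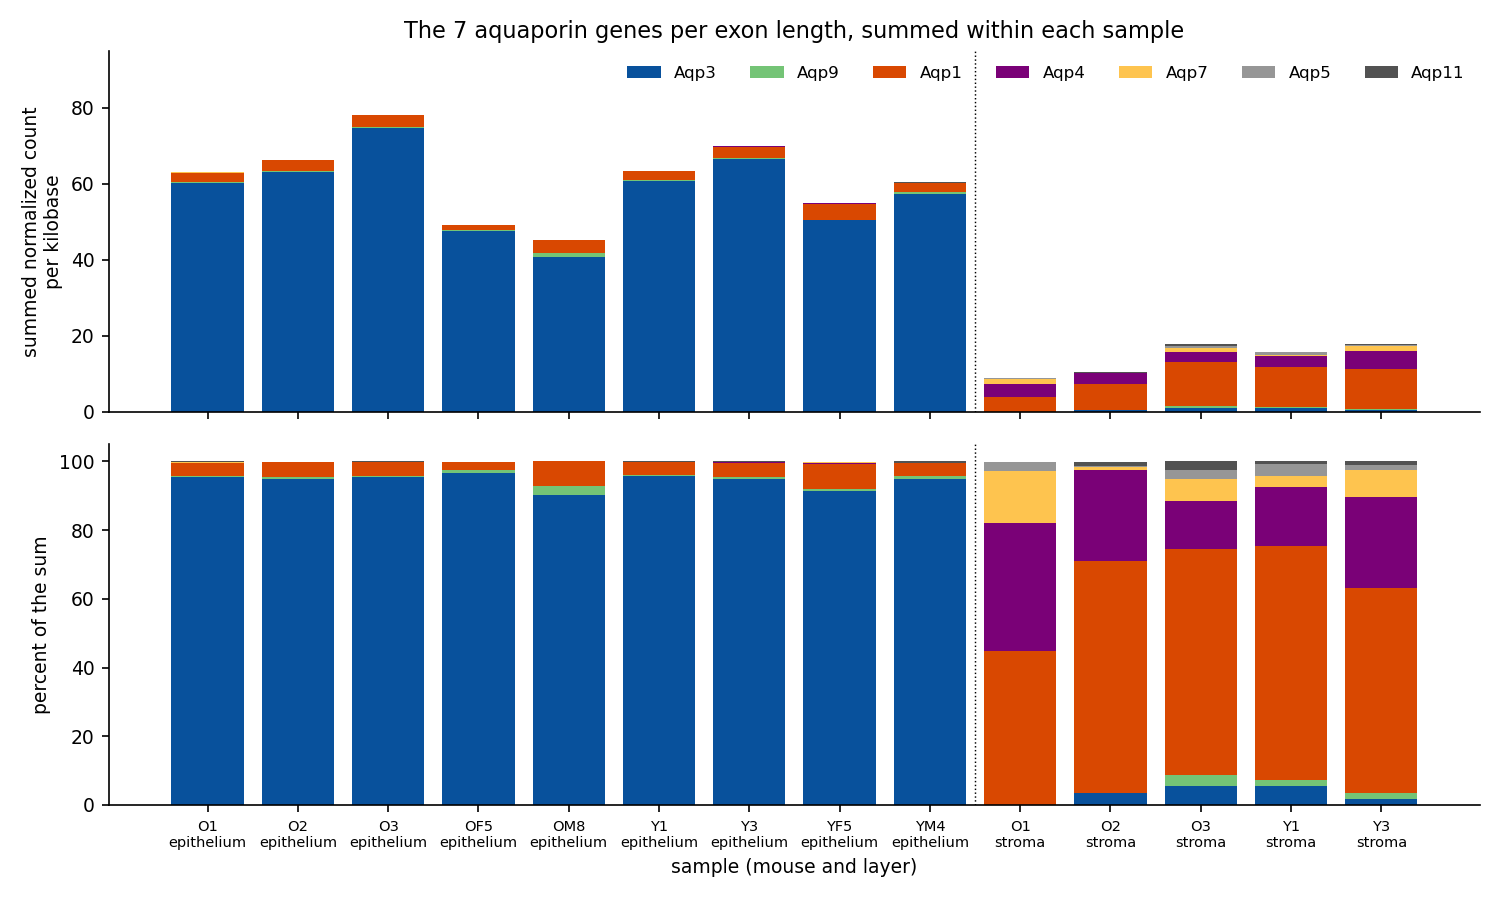
The 7 genes as normalized counts per kilobase of exon, stacked and summed for each library (upper y axis), and as a percentage of that sum (lower y axis), with libraries by mouse and layer on the x axis. Aqp3 fills 90.3% to 96.7% of the sum in the 9 epithelial libraries, and Aqp1 and Aqp4 fill most of it in the 5 stromal libraries.

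Glycerol that enters through an aquaglyceroporin can be phosphorylated by glycerol kinase and built into glycerolipids, and glycerol set free by lipolysis leaves adipocytes through AQP7. Of 15 genes for the uptake, release and use of glycerol, 5 were called higher in epithelium, 9 lower and 1 not, with a median log2 fold change of -1.24 against -0.05 over all genes. The genes that were higher included Gk, glycerol kinase, with epithelial and stromal means of 11.04 ± 0.733 (SD, n = 9) and 1.45 ± 1.13 normalized counts (SD, n = 5) and a log2 fold change of 2.92 (SE 0.35, edgeR adjusted p = 5.35e-07). Pld2, a phospholipase D known to act with AQP3 in keratinocytes, was at 40.8 ± 9.73 and 7.17 ± 4.37 (log2 fold change 2.50, SE 0.30, edgeR adjusted p = 5.07e-07). Dgat2, which makes triacylglycerol, was at 143 ± 17.5 and 26.2 ± 13.4 (log2 fold change 2.44), and Gpat4 and Gpd2 differed less (0.65 and 0.49).

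The genes of the list that were lower in epithelium were led by Gpd1, which links glycolysis to glycerol 3-phosphate, at 0.535 ± 0.817 and 43.0 ± 12.0 normalized counts (log2 fold change -6.55, SE 0.47, edgeR adjusted p = 2.36e-09). Lpin1, a phosphatidate phosphatase, differed by -3.92, and the lipases Pnpla2, Mgll and Lipe, which release fatty acids and glycerol step by step, by -2.83, -2.09 and -0.77. Gpam, Agpat2, Gpd1l and Dgat1 completed this group (-1.94, -1.58, -1.33 and -1.24), and Gpat3 was not called (1.08, edgeR adjusted p = 0.0583). The marker lists of muscle and fat were also lower in epithelium, in all 8 of 8 genes each. The part of these tissues in the values of the glycerol genes was not tested.

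**Figure D5:**
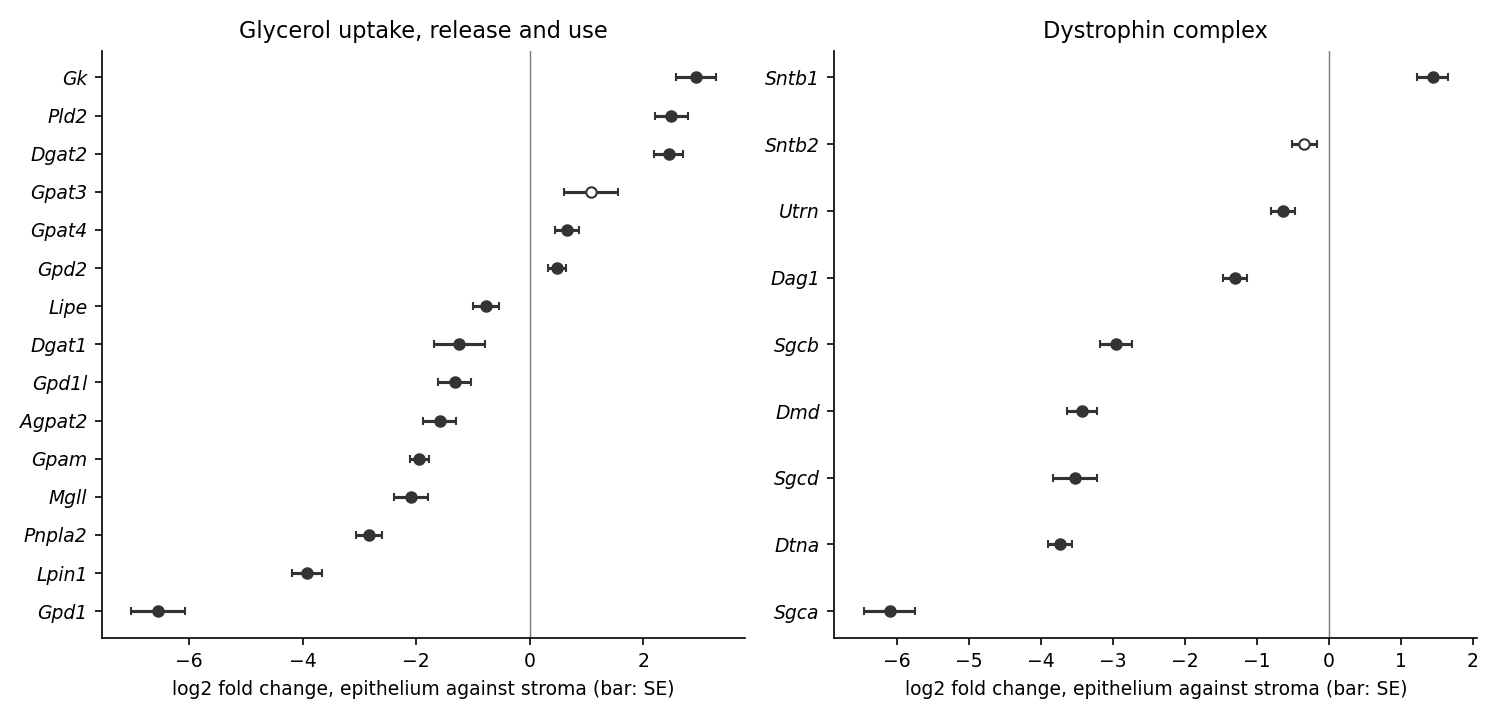
Log2 fold changes between epithelium and stroma (x axis, bars are SE) of 15 genes for glycerol uptake, release and use on the left and 9 of the 11 genes of the dystrophin complex on the right (y axes), with open points for genes that were not called. Gk, Pld2 and Dgat2 stand between 2.44 and 2.92, Gpd1 stands at -6.55, and Sntb1 is the only filled point above 0 on the right.

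The second question was whether age changed the channels in either layer. In epithelium, 4 of the 7 genes passed the filter and none was called, at an unadjusted p under 0.05 or after adjustment, by edgeR, and none had an adjusted p under 0.05 by DESeq2. Over all 15107 genes 0.0132% were called, 0.00662% in each direction, and 3.36% had an unadjusted p under 0.05. Aqp3 was 110.2, 115, 136, 86.8 and 74.5 normalized counts in the aged mice O1, O2, O3, OF5 and OM8, and 111, 121, 92.1 and 105 in the young mice Y1, Y3, YF5 and YM4. The aged values enclosed the young ones, and the log2 fold change was -0.11 (SE 0.13, 95% interval -0.39 to 0.17, edgeR adjusted p = 0.999).

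Aqp1 in epithelium was 6.13, 7.54, 8.16, 3.10 and 8.49 normalized counts in the same aged mice and 6.30, 7.65, 10.8 and 6.23 in the young mice. The groups overlapped (log2 fold change -0.12, SE 0.24, 95% interval -0.62 to 0.38). For Aqp9 the log2 fold change was 0.29 (SE 0.40, 95% interval -0.55 to 1.13), with the highest value, 4.71, in the aged mouse OM8. For Aqp11 it was -0.42 (SE 0.58, 95% interval -1.64 to 0.80), with the highest value in the young mouse YM4. The intervals of Aqp3 and Aqp1 thus leave room for changes of less than a log2 of 1 in either direction, and those of Aqp9 and Aqp11 for more. Aqp4, Aqp5 and Aqp7 were too scarce in epithelium to be tested for age.

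In stroma, all 7 genes passed the filter and none was called by edgeR or DESeq2 or had an unadjusted p under 0.05. Of 21323 genes tested, 0% were called by edgeR, 3.64% had an unadjusted p under 0.05, and DESeq2 called 2. Aqp1 was 10.4, 18.4 and 30.6 in the 3 aged mice and 28.2 and 28.01 in the 2 young mice (log2 fold change -0.51, SE 0.41, 95% interval -1.42 to 0.41, edgeR adjusted p = 1). Aqp4 was 20.7, 17.1 and 15.5 against 16.8 and 29.4 (log2 fold change -0.39, SE 0.33, 95% interval -1.12 to 0.34). In both genes the ages overlapped. For the scarcer Aqp3, Aqp5, Aqp7, Aqp9 and Aqp11 the log2 fold changes were between -0.61 and 0.24 with SE of 1.13 to 2.22, so that even large changes in stroma were not detectable with 3 against 2 mice.

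The difference between the age effects of the layers was tested in the 10 libraries of the 5 mice with both layers. No aquaporin gene was called by edgeR or DESeq2, and the smallest unadjusted p was that of Aqp1 (0.31). The difference was 0.57 for Aqp1 (SE 0.53), 0.38 for Aqp3 (SE 1.01) and -0.68 for Aqp4 (SE 0.74) on the log2 scale. Of 22771 genes, 0% were called by edgeR, 4.3% had an unadjusted p under 0.05, and DESeq2 called 62. Age also left the other lists without a call in each of these comparisons, among them 14 tested glycerol genes in epithelium and 15 in stroma.

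Beyond the layers, genes were ranked by how closely they followed each channel gene across the 14 libraries once the mean of each layer was taken out. Over 13710 protein-coding genes, those most like Aqp4 were Kcnj11 (Pearson r = 0.95), a subunit of the ATP-sensitive potassium channel, Myoz1 (0.94), a Z-disc protein of fast fibers, and Car3 (0.94), the carbonic anhydrase of muscle and fat. Those most like Aqp3 were Ggh (0.97), Epha1 (0.96) and Rbm14 (0.96), and those most like Aqp1 were Kcnip2 (0.93), Ormdl3 (0.90) and Fam3b (0.90). Aqp9 was followed by Tet2 (0.93), Tap1 (0.92) and Wdr19 (0.91), and Aqp11 by Ska2 (0.93), Pigf (0.93) and Lysmd3 (0.92). These are the highest of many correlations, they are given as a description, and the libraries share depth and mice, which can raise them.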

How the data were processed

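Bulk RNA-Seq of peeled esophageal epithelium (9 libraries) and stroma (5 libraries) was analysed. Libraries were made from total RNA by oligo-dT selection, and the labels name bcl2fastq. Per the study's methods, the authors mapped reads with Rsubread to GRCm38.p6 and deposited raw counts of reads per gene from featureCounts. The annotation release, strand setting and handling of reads matching several genes are not given in the sources used here. Positions and exon lengths came from GENCODE M21 (53292 of 55291 symbols found). Promoter windows came from RefSeq and were searched for 6 of the 7 genes. Protein sequences were not used here.

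Counts were fitted over all genes with edgeR 4.0.16 in R 4.3.3 (TMM, filterByExpr with a minimum count of 10, robust glmQLFit, glmQLFTest), and p-values were adjusted by Benjamini-Hochberg with a threshold of 0.05. Layers were compared over 14 libraries without a covariate, age in epithelium with a covariate for mice with epithelium only, age in stroma without one, and the interaction in the 10 libraries of 5 mice. SE was the log2 fold change divided by the square root of F, and intervals used the t distribution of the fit. Genes outside the filter were tested by exact permutation over libraries with scipy 1.17.1, and, added after seeing the data, over the 5 pairs of layers. The layers of a mouse pair by the shared code in the labels, and their deviations from the group means correlated by 0.0344 to 0.0917 in the 5 mice. Libraries of a group are separate mice and differed beyond sampling noise in all 20 pairs of a group.

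The 7 genes and all lists were chosen with earlier results of these data known. Genes named were the 7, the other aquaporins, called glycerol and dystrophin genes, the 4 most abundant genes of each other list and the 3 most alike genes, less some genes that are not reported here, while Emcn, Cxcr2, Adgre1, Lpo, Gpat3 and the genes flanking Aqp3 were named after their values were seen. Alternatives were DESeq2 1.42.0, upper quartile scaling, other filters, protein-coding genes only, subsets, blocks and each mouse left out. The fits were checked on simulated counts. The floor of 3 counts covers counting error only.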

Additional observations from a re-analysis of the deposited data

Results flagged for a closer look

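Among 28 sets of libraries examined by Dixon's ratio, 4 held a library that stood apart, and chance gives about 1 in 20. Aqp9 in epithelium was highest in the aged mouse OM8 at 4.71 normalized counts, from 20 reads, against 0.833 to 1.73 in the other 8 epithelial libraries, and the same library stood apart among the aged ones (1.16 to 1.72 in the other 4). Without OM8 the age difference of Aqp9 in epithelium was -0.026 in place of 0.29 on the log2 scale, and neither passed the test. Aqp1 in epithelium was lowest in the aged mouse OF5 at 3.10 normalized counts, from 9 reads, against 6.13 to 10.8 in the others. Aqp5 in young epithelium was 0.0981 in Y3, which is 3 reads, and 0 in the other 3 libraries. The ratio is 1 by construction when all other values are 0, and in YF5 and YM4 3 reads would be 1.25 and 1.04 normalized counts, so a level like that of Y3 could not be seen there. OM8 and OF5 are also libraries of low depth, whose part in the Aqp9 and Aqp1 values was not tested.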

How the results depend on the processing

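In the layer comparison, Aqp1, Aqp3 and Aqp4 kept direction and call under all 18 alternatives each, with log2 fold changes of -1.86 to -1.49, 6.50 to 7.21 and -6.68 to -5.70. The count of 3 called genes became 5, of which 4 were lower in epithelium, without a filter and in young samples only, because Aqp5 and Aqp7 then entered the test. Leaving out each mouse gave 3 to 5 called genes and 2 to 4 lower ones, the upper values without O2 for the same reason. Over all genes, 14026 of 49574 were called without a filter (8428 lower) and 8613 of 19253 in young samples only (4860 lower). Without O2, 8715 of 17100 were called (4834 lower). In the young samples and without O2, Aqp5 and Aqp7 passed the filter only through stroma, where they are higher, so these calls add no support. Aqp4 passed it in the same way in the main fit. A filter asking for 10 counts in every library left none of the 7 genes in the layer comparison and gave no value. With the replicate block of mouse the count stayed at 3 (8590 of 16713 genes called in all, 9400 without the block), and no block of any kind changed a call.

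No age call appeared under any alternative, but directions were not stable. In epithelium the 5 mice with both layers alone gave log2 fold changes of 0.048 for Aqp1, 0.046 for Aqp3, -0.10 for Aqp9 and 0.12 for Aqp11, and the 4 mice with epithelium only, a choice made after seeing the data, gave -0.47 for Aqp1 and -0.26 for Aqp3. The replicate block of the number in the mouse code gave 0.038 for Aqp3 and 0.24 for Aqp11 in epithelium and 0.47 for Aqp7 and -1.74 for Aqp11 in stroma. Deviations of mice with the same number correlated by 0.127 to 0.161 in epithelium (3 pairs), by -0.327 to -0.0422 once the form of the code was also taken out, a check added after the first was seen, and by 0.0378 to 0.0468 in stroma (2 pairs), so that the number and the form of the code cannot be told apart. In the interaction, Aqp5 changed sign to -0.12 with DESeq2, -0.23 without a filter and -0.078 with protein-coding genes only, and Aqp11 to 0.011 with upper quartile scaling and 0.62 with the replicate block of mouse. The cause was not tested.

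Leaving out each mouse gave ranges across 0 by age in epithelium for Aqp1 (-0.27 to 0.028), Aqp9 (-0.026 to 0.74) and Aqp11 (-0.80 to 0.014). In stroma they were -1.71 to 0.44 for Aqp3, -0.75 to 0.045 for Aqp4, -1.53 to 0.043 for Aqp5, -0.78 to 0.66 for Aqp7, -7.57 to 0.13 for Aqp9 and -1.19 to 0.82 for Aqp11. In the interaction they were -0.50 to 1.501 for Aqp3, -1.09 to 0.27 for Aqp4, -1.54 to 3.91 for Aqp5, -0.35 to 7.74 for Aqp9 and -1.11 to 1.28 for Aqp11. DESeq2 gave no adjusted p for Aqp9 and Aqp11 by age in epithelium. Over all genes, calls by age in epithelium were 2 by edgeR, 28 by DESeq2, 36 without a filter and 4 with the replicate block of number. In stroma they were 0, 2, 26 and 6, with 13 and 7 when Y1 or Y3 was left out, which leaves 1 young stromal library that is assumed to vary like the aged ones. In the interaction they were 0 by edgeR, 62 by DESeq2 and 98 without a filter. Depth limits every statement on Aqp5, Aqp7, Aqp9 and Aqp11 in the 4 mice with epithelium only.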

Other observations

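The other aquaporin genes were near the limit of detection. Mip, Aqp2, Aqp6, Aqp8 and Aqp12 did not pass the filter of the layer comparison, and Aqp12 had no count in the 9 epithelial libraries and 3 counts in 1 stromal library. Aqp6 stood out among them in the stroma of O3 with 55 counts (2.10 normalized counts), against 7 in Y1, 11 in Y3 and 0 in O1 and O2, and 1 count in all of epithelium. Aqp6 lies 6.57 kb from Aqp5 on chromosome 15. Aqp5 had 33, 27 and 16 counts in the stroma of O3, Y1 and Y3, and also 11 in O1 and 2 in O2, where Aqp6 had none. Aqp5 was highest in Y1 (1.39 normalized counts), where Aqp6 was 0.361, and a link between the genes was not tested.

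Around Aqp3 and Aqp7, the flanking genes did not share the 113-fold difference. Nfx1 beside Aqp7 had a log2 fold change of 0.01 (SE 0.16, edgeR adjusted p = 0.972), Nol6 beside Aqp3 0.53 (SE 0.26, edgeR adjusted p = 0.0895) and Ube2r2 beyond it 0.69 (SE 0.20, edgeR adjusted p = 0.00639).

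Of 12 genes for the osmotic response and cell volume, 2 were called higher in epithelium, 6 lower and 4 not, with a median log2 fold change of -0.34. Over all 16791 genes 56.2% were called, 26.1% higher in epithelium and 30.1% lower, with a median of -0.05. The counts are therefore not read as a trait of this list. Atp1b3, an accessory beta subunit of the sodium pump, was higher in epithelium (log2 fold change 2.49, edgeR adjusted p = 8.13e-10), and Atp1b1, another beta subunit named after its values were seen, was lower, with means of 2.05 ± 1.24 and 96.5 ± 19.6 normalized counts (log2 fold change -5.44, edgeR adjusted p = 5.29e-12). Wnk1, a kinase that senses chloride and cell volume, was lower in epithelium (-1.07, edgeR adjusted p = 6.34e-05), and Nfat5, the transcription factor of the hypertonic response, was not called (-0.25).

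Schwann cell and glial genes were also lower in epithelium in 6 of 8, with summed levels of 29.3 to 50.2 against 35.5 to 150 normalized counts, with Mbp (-0.31) and Gfap (-1.91) not called.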
